A study of Mus musculus with 15 samples.

Results

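The 10 genes described here carry out the uptake, storage and release of fat and the hormone secretion of adipocytes, and were followed in H3K4me3 peak lists of mouse brown adipocytes, out of 21770 protein-coding genes annotated. They were *Lpl*, *Cd36* and *Fabp4* of fatty acid uptake, *Plin1*, *Plin2* and *Cidec* of the lipid droplet, *Pnpla2* and *Lipe* of lipolysis, and *Adipoq* and *Lep* of adipokine secretion. A gene was called marked when a peak overlapped 2000 bp either side of any of its annotated transcript starts (GRCm39), and all 10 were kept whether marked or not. H3K4me3 had been profiled by ChIP–seq in mBA cells in 4 wild-type samples (WT), 4 wild-type samples given 2-hydroxyglutarate (WT + 2HG) and 4 CLPP knockout samples (CLPP-KO), with 1 input for each condition.

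The mBA cells came from mouse brown adipose tissue. The labels call them primary, while the study's methods describe immortalization with SV40 large T antigen followed by differentiation. CLPP is a protease of the mitochondrial matrix. The WT + 2HG cells received the cell-permeable octyl ester of d-2HG at 500 µM for 72 h in DMSO, and no vehicle is given for the WT samples. CLPP-KO cells were also supplemented with uridine, and whether WT cells were is not stated in the labels. If WT cells received neither, genotype and uridine cannot be told apart, nor can 2HG and its vehicle. Per the study, wild-type and CLPP-KO cells were lines made from different mice. Genotype and cell line therefore cannot be told apart either. The peak caller had combined the 4 replicates into 1 list per condition, with 12342 peaks for WT, 14059 for WT + 2HG and 15118 for CLPP-KO. No spread between replicates was therefore at hand, no difference was tested, and the reads behind a peak or a sample cannot be read from the lists. A gene without a peak is one with no peak in the deposited list, which does not show that the mark was absent.

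Adipocytes take up fatty acids that lipoprotein lipase frees from circulating triglyceride, esterify them and keep them in lipid droplets. Droplet coat proteins control the access of lipases, and the stepwise hydrolysis of stored triglyceride supplies fatty acids as fuel for heat in brown fat. H3K4me3 is deposited around transcription starts and is usually widest and strongest at CpG-rich promoters, while many genes switched on in 1 cell type have CpG-poor promoters.

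In WT cells 2 of the 10 genes were marked, *Plin2* and *Pnpla2*. In WT + 2HG 5 were marked and in CLPP-KO 4, both lists adding *Lpl* and *Plin1* and the first also *Lipe*. *Cd36*, *Fabp4*, *Cidec*, *Adipoq* and *Lep* had no promoter peak in any list. Among all protein-coding genes 51.3% were marked in WT, 58.2% in CLPP-KO and 56.4% in WT + 2HG, and 40.6% in none. The shares of the 10 genes were 20% in WT, 40% in CLPP-KO and 50% in WT + 2HG, given as a description without a test.

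Stretches of sequence at *Pnpla2*, *Plin2*, *Lpl* and *Adipoq* are shown first, read from GRCm39 in the direction of transcription with each CpG in capitals. No count of marked genes, percentile or width rests on them. The first is under the peak that every list holds, the second lies before the start of the other gene marked in every list, the third is under the *Lpl* peak that WT lacks, and the last lies before the start of a gene marked in no list. The *Pnpla2* stretch is chr7:141035200-141035449 on the plus strand, from the start codon through the coding part of exon 1 into intron 1. The *Plin2* stretch is chr4:86588460-86588709 on the minus strand, the 250 bases before the canonical start. The *Lpl* stretch is chr8:69333942-69334141 on the plus strand, in intron 1 around the summits. The *Adipoq* stretch is chr16:22965036-22965285 on the plus strand, the 250 bases before the canonical start.
Pnpla2: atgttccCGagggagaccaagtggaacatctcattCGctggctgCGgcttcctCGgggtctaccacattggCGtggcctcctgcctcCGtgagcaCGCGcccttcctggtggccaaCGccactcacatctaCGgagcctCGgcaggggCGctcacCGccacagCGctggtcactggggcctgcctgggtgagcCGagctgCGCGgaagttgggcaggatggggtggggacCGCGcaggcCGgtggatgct
Plin2: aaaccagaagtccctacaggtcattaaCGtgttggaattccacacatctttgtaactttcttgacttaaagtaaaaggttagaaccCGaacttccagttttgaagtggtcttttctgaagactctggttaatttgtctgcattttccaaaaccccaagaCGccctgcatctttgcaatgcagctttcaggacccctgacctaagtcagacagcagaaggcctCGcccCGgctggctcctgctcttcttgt
Lpl: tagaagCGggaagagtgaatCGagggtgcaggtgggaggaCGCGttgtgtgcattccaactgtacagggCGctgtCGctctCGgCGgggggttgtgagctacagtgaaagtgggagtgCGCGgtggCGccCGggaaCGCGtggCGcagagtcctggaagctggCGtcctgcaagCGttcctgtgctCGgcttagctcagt
Adipoq: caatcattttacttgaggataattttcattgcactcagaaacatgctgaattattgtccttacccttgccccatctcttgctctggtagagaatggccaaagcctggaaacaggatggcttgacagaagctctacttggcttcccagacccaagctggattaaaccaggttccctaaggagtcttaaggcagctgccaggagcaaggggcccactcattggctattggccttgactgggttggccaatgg
The *Pnpla2* stretch held 20 CpG in 250 bases at 67.6% GC and the *Lpl* stretch 18 in 200 bases at 63% GC. The *Plin2* stretch held 5 CpG. The *Adipoq* stretch held 0 CpG, at 48.8% GC. The *Pnpla2* and *Lpl* stretches lie under a peak and the others before a start, so that they are not like for like. Of the *Plin2* stretch, the 67 and 75 bases nearest the start lie under the WT + 2HG and CLPP-KO peaks. In the 250 bases before the canonical start, *Pnpla2* held 10 CpG at 62% GC and *Lpl* 7 at 48% GC, while *Lep*, marked in no list, held 16 at 65.2% GC.

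The labelled cell type was compared with its markers. Of 9 genes typical of brown adipocytes, 2 were marked in WT, *Prdm16* and *Zic1*, 5 in CLPP-KO and 4 in WT + 2HG. *Cidea* and *Lhx8* were marked in both of these lists and *Ebf2* in CLPP-KO. *Lhx8* stood at the 5.40th percentile in WT + 2HG and at the 75.7th in CLPP-KO. *Ucp1*, the uncoupling protein that defines thermogenic fat, and *Dio2*, *Ppargc1a* and *Elovl3* had no peak in any list. Of 6 adipocyte genes, the transcription factors *Pparg*, *Cebpa* and *Cebpb* were marked throughout, *Plin1* in WT + 2HG and CLPP-KO, and *Adipoq* and *Fabp4* in no list. Of 8 preadipocyte and fibroblast genes 5 were marked in WT, where 51.3% of all protein-coding genes were, 6 in CLPP-KO and 5 in WT + 2HG. *Pdgfra* was the highest of them in WT at the 78.3rd percentile, the median of those marked in every list was 28.0 in WT, and *Ly6a* and *Col3a1* were in no list. Of 5 immune genes 0 were marked in any list, and of 4 endothelial genes 1, *Kdr*, was marked in each. Of 5 skeletal muscle genes 0 were marked in WT and WT + 2HG and 2 in CLPP-KO, *Myod1* and *Pax7*. Their CLPP-KO percentiles were 10.7 and 53.0. The marker counts were not repeated with lists of equal length, which can remove peaks of low percentile. All 6 genes used by every cell were marked in each list. The 4 of 9 brown adipocyte genes in no list stand beside the 40.6% of all protein-coding genes in no list, so that no reading on the cell type was taken from that count. None was taken from the other marker counts either. The share of undifferentiated cells in the samples was not tested. The *Clpp* promoter was marked in WT at the 39.9th percentile, in WT + 2HG at the 45.2nd and in CLPP-KO at the 43.4th, which does not check the knockout, since a promoter can keep the mark when the gene is disrupted.

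Among the genes of uptake, *Lpl* was the one that differed between the lists. *Lpl* encodes lipoprotein lipase, which hydrolyses triglyceride of circulating lipoproteins, and spans chr8:69284603-69360100 with 12 annotated starts. WT had no peak at any of them, the nearest lying 37222 bp away at the promoter of *Ints10*. In WT + 2HG a peak of 1064 bp lay at chr8:69333197-69334260, at the 32.8th percentile of area in its list and with a summit −log10 p of 7.20. In CLPP-KO a peak of 1088 bp lay at chr8:69333192-69334279, at the 47.2nd percentile and with a summit −log10 p of 9.18. Both began close behind the canonical start, 54 and 49 bp downstream, and covered the rest of exon 1 and the first part of intron 1. Their summits stood at +928 and +870 bp, within intron 1, and all 1064 bp of the WT + 2HG peak lay within that of CLPP-KO. The same peak also overlaps the window of *Gm64236*, a noncoding gene on the opposite strand whose start is nearer to both summits than any start of *Lpl*, so that the mark of the 2 genes cannot be told apart by position.

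*Cd36* encodes the fatty acid translocase of the plasma membrane, and *Fabp4* the abundant fatty acid binding protein of the adipocyte cytosol. Neither had a peak in its gene body or within 50 kb of its canonical start in any list. *Cd36* (chr5:17986432-18094067, 20 annotated starts) was the most isolated of the 10, its nearest peak being 470559 bp away in WT at *Gnai1*, 254311 bp in CLPP-KO and 254511 bp in WT + 2HG, both at *Sema3c*. For *Fabp4* (chr3:10268785-10273737) the nearest peak lay 122226 bp away in WT and 122170 bp in CLPP-KO, at the *Impa1* promoter, and 120262 bp away in WT + 2HG.

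The droplet genes divided into 1 marked throughout, 1 marked away from its main start and 1 without a peak. *Plin2* (chr4:86565912-86588459) encodes perilipin 2, the droplet coat protein found in many cell types, and was weakly marked in every list. In WT its peak covered 836 bp at chr4:86587602-86588437 at the 15.8th percentile, rank 10391 of 12342 peaks by area, with a summit −log10 p of 4.60. In WT + 2HG it covered 663 bp at chr4:86587864-86588526 at the 15.7th percentile, with a summit −log10 p of 5.51. In CLPP-KO it covered 1204 bp at chr4:86587331-86588534 at the 24.7th percentile, with a summit −log10 p of 6.36. The 3 peaks overlapped, with summits in intron 1 at +388, +434 and +309 bp from the canonical start. The WT peak began 22 bp downstream of that start, whereas those of WT + 2HG and CLPP-KO reached 67 and 75 bp upstream of it. The CLPP-KO peak was 1.44 times as wide as the WT peak and contained all of it, and the WT + 2HG peak was 0.79 times as wide.

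*Plin1* (chr7:79369966-79382718) encodes perilipin 1, the droplet coat protein of adipocytes that holds back lipolysis until it is phosphorylated. No list had a peak at its canonical start or at the group of starts around it. WT + 2HG had a peak of 558 bp at chr7:79370974-79371531 at the 21.0th percentile, and CLPP-KO one of 569 bp at chr7:79371035-79371603 at the 33.8th, with 497 bp in common. Both lay at the other end of the gene, with summits 11400 and 11348 bp downstream of the canonical start in exon 9 of 9. They counted for *Plin1* only through an annotated start within the gene, 1505 and 1433 bp from the peak edges, which were the longest distances among the peaks counted. Among the 5 genes without a promoter peak, the one closest to the 2000 bp limit was *Cidec*, with the *Jagn1* peak 6755 to 6778 bp away. WT had no peak at the *Plin1* site, its nearest being 7445 bp away at *Kif7*.

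*Cidec*, whose product enlarges lipid droplets by passing lipid from smaller to larger ones, had no peak in its gene body (chr6:113400691-113412721) in any list. The *Jagn1* promoter beside it was marked in all 3, at the 70.8th percentile in WT, the 60.4th in WT + 2HG and the 69.8th in CLPP-KO.

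Of the lipases, *Pnpla2* was the strongest of the 10 genes and *Lipe* was marked in 1 list. *Pnpla2* (chr7:141034404-141040656) encodes adipose triglyceride lipase, the enzyme of the first step of lipolysis. Its peak covered 975 bp at chr7:141034894-141035868 in WT, at the 67.8th percentile, 897 bp at chr7:141034931-141035827 in WT + 2HG, at the 61.6th, and 1121 bp at chr7:141034861-141035981 in CLPP-KO, at the 70.2nd. The summit −log10 p was 11.5, 21.0 and 22.8 in the same order. The order of these percentiles depended on how they were taken: with equal-sized lists they were 67.8 in WT, 63.5 in CLPP-KO and 56.3 in WT + 2HG, and by summit −log10 p 62.2, 79.5 and 79.1. These peaks spanned the canonical start, from 169, 132 and 202 bp upstream to 805, 764 and 918 bp downstream. The summits of WT + 2HG and CLPP-KO fell in exon 1, at +319 and +306 bp, and that of WT in intron 1, at +495 bp. The peak also overlaps the window of *Gm72429*, a noncoding gene. *Pnpla2* lies among marked genes, with 8 peaks within 50 kb of its canonical start in WT, 9 in CLPP-KO and 11 in WT + 2HG, against 0 for *Cd36*, *Fabp4* and *Lep* in each list.

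*Lipe* (chr7:25078880-25098135) encodes hormone-sensitive lipase, which acts on diacylglycerol. A peak of 466 bp at chr7:25094642-25095107 in WT + 2HG, at the 22.5th percentile, was its only promoter peak in the 3 lists. Its summit lay in intron 1, 3244 bp downstream of the canonical start and 913 bp from an annotated internal start, and the peak also overlaps *4732471J01Rik*, a noncoding gene on the other strand. WT + 2HG held a second, weaker peak of 335 bp in the last of the 10 exons, at the 5.53rd percentile and outside every promoter window of the gene.

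The adipokine genes *Adipoq* (chr16:22964106-22976810), which encodes adiponectin, and *Lep* (chr6:29060216-29073877), which encodes leptin, had no peak in the gene body in any list. For *Adipoq* the nearest peak was 16990 bp away in WT, 17214 bp in CLPP-KO and 17022 bp in WT + 2HG, each at the *Rfc4* promoter. For *Lep* it was 98699 bp away in WT, 78495 bp in CLPP-KO and 78512 bp in WT + 2HG.

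**Figure D1:**
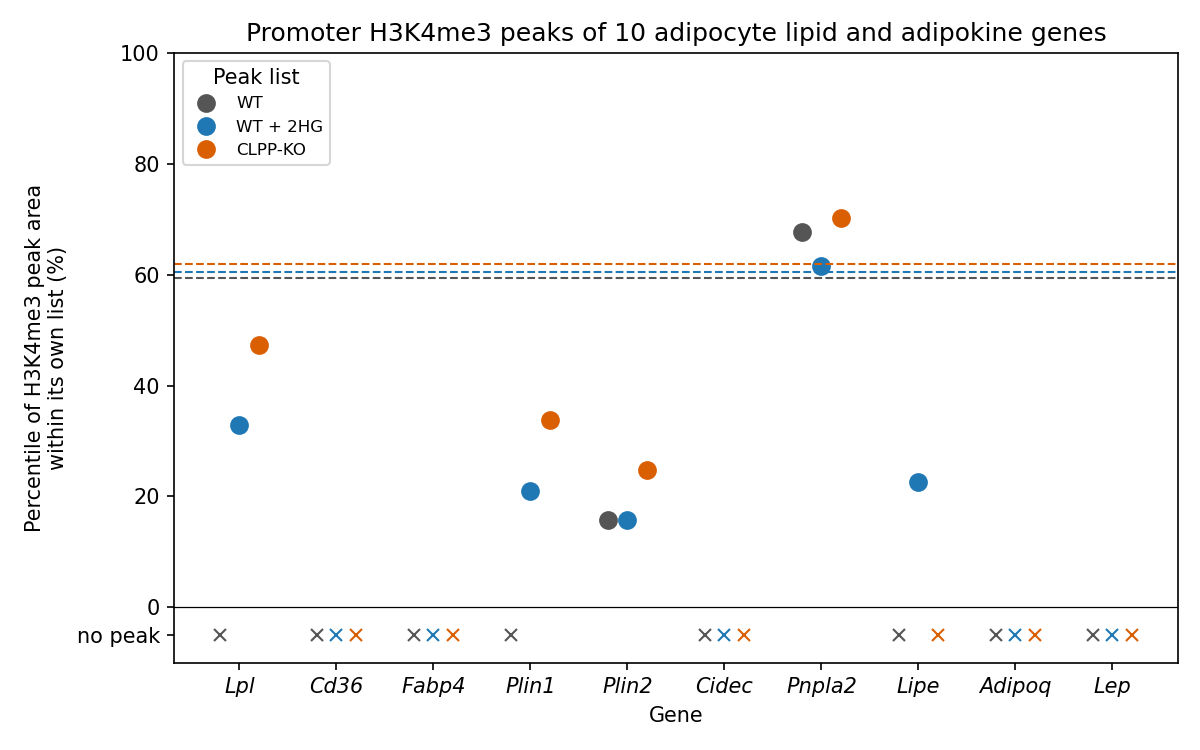
Percentile of the area of the strongest promoter peak within its own list (vertical axis, %) for the 10 genes (horizontal axis) in WT, WT + 2HG and CLPP-KO. Crosses stand for no peak and dashed lines for the median of marked protein-coding genes in each list (59.3, 60.6 and 62.0). *Pnpla2* was above the median in every list, and the other marked genes were below it.

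**Figure D2:**
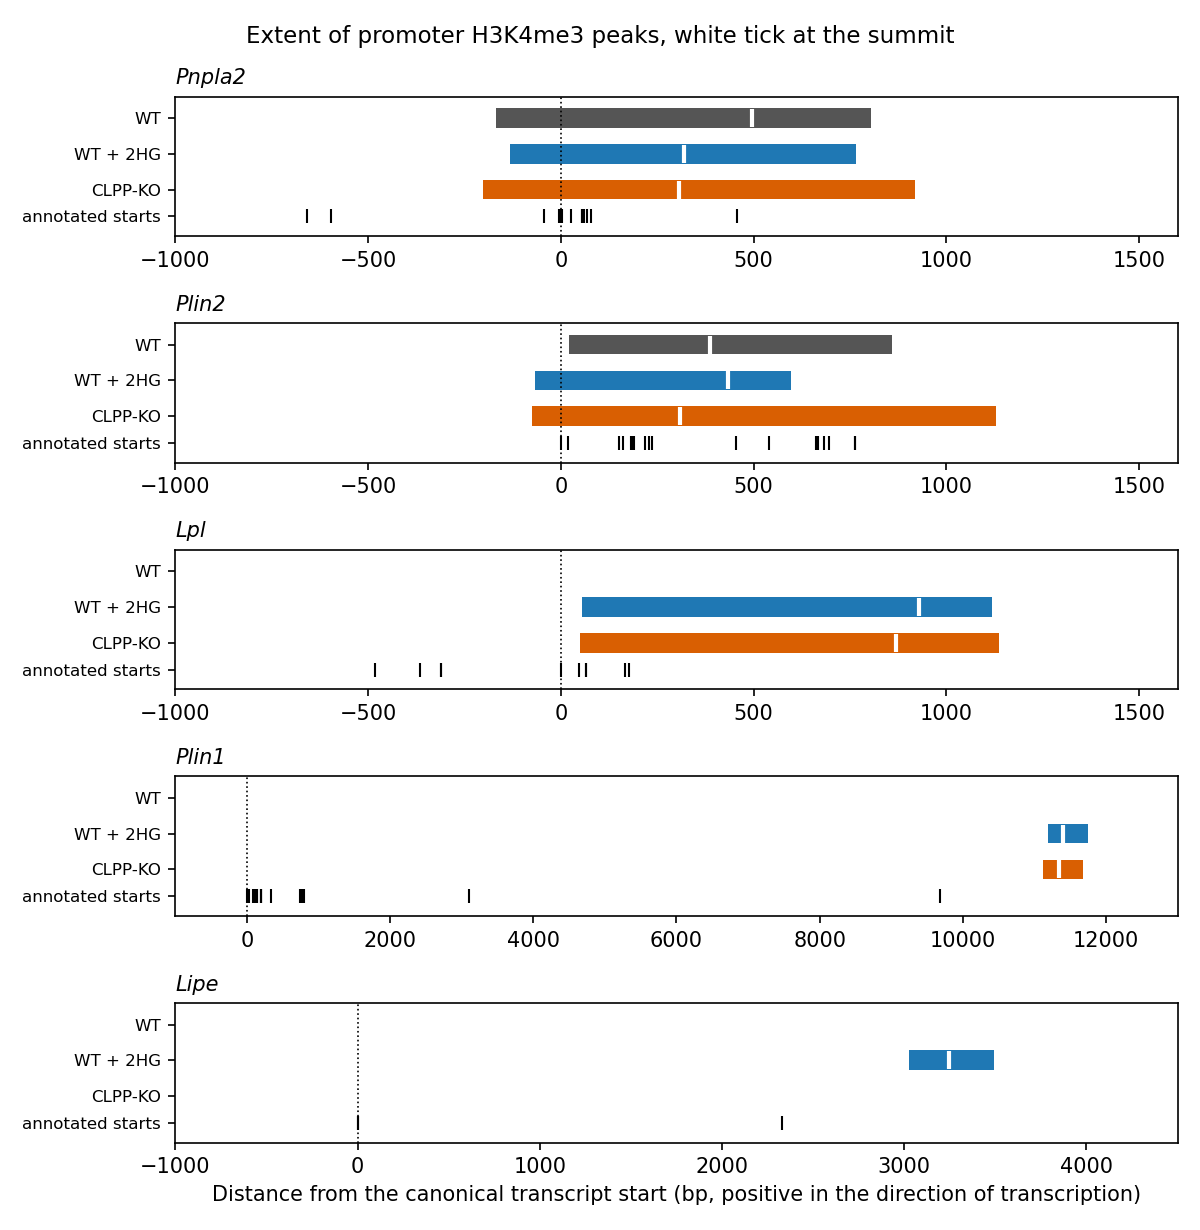
Extent of each promoter peak of the 5 marked genes (bars) along the distance from the canonical transcript start in bp (horizontal axis), 1 row per list, with a white tick at the summit and black ticks at annotated starts. The scale differs between panels. The peaks of *Pnpla2*, *Plin2* and *Lpl* lie at or just behind the canonical start, and those of *Plin1* and *Lipe* lie 3028 bp or more downstream of it.

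Of the 8 genes without a peak in WT, 3 were marked in WT + 2HG, 2 in CLPP-KO and 2 in both. Among all 10611 protein-coding genes without a WT peak, 11.6% were marked in WT + 2HG, 14.9% in CLPP-KO and 9.74% in both. *Lpl* was the only one of the 3 whose peak lay beside the canonical start. When the canonical start alone was used, WT + 2HG and CLPP-KO marked 3 of the 10 genes each and WT 2, so that *Lpl* was the sole difference. This setting was added after the values were seen. The median percentile of protein-coding genes without a WT peak was 20.4 in CLPP-KO and 15.5 in WT + 2HG, and the upper quartiles were 29.7 and 23.8. *Lpl* was above the upper quartile in both lists, *Plin1* in CLPP-KO, and *Lipe* and *Plin1* were between median and upper quartile in WT + 2HG. These places held in part with equal-sized lists, where *Lpl* stood at 35.4 in CLPP-KO and 23.5 in WT + 2HG, above upper quartiles of 22.3 and 18.2. *Plin1* was then at 18.9 in CLPP-KO, between a median of 12.3 and the upper quartile, and in WT + 2HG *Plin1* at 10.1 and *Lipe* at 11.8 were close to the median of 9.98. With areas of at least 1000, *Plin1* at 3.90 and *Lipe* at 5.72 were below the lower quartile of 6.89 in WT + 2HG. *Lpl* at 18.2 lay there between the median of 14.2 and the upper quartile of 23.5. In CLPP-KO under that threshold *Lpl* at 35.2 was above the upper quartile of 27.3. *Plin1* at 18.8 was between the CLPP-KO median of 16.3 and that upper quartile. WT is the shared reference of both comparisons.

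For the 2 genes with a peak in every list, the CLPP-KO percentile was above that of WT by 8.90 points for *Plin2* and 2.46 for *Pnpla2*. Among 11021 protein-coding genes with a peak in every list, 69.9% also had a higher percentile in CLPP-KO than in WT, with a median difference of 5.30 points. The lists differ in length, and both differences changed sign when each list was limited to as many peaks as WT holds, to -8.03 for *Plin2* and -4.24 for *Pnpla2*, while the median of protein-coding genes was -0.51. They also changed sign when percentiles were taken among peaks that overlap a peak in both other lists, to -5.33 and -6.01. The median of protein-coding genes changed sign there too, to -1.50. When peaks were ranked by the summit −log10 p, the differences of *Plin2* and *Pnpla2* stayed positive, at 8.88 and 17.4. The difference of WT + 2HG from WT was -0.09 points for *Plin2* and -6.15 for *Pnpla2*, and 35.7% of protein-coding genes with a peak in every list had a lower percentile than in WT. For *Plin2* and *Pnpla2* these differences were -11.8 and -11.5 with equal-sized lists, where the median of protein-coding genes was -0.02, -8.64 and -14.0 among peaks shared with both other lists, where that median was -1.20, and 2.29 and 16.9 when peaks were ranked by the summit −log10 p.

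Widths do not depend on the ranking. The *Plin2* peak was 368 bp wider in CLPP-KO than in WT, and the *Pnpla2* peak 146 bp wider, or 1.15 times. In WT + 2HG both were narrower than in WT, at 0.79 and 0.92 times. Among protein-coding genes with a peak in every list the median width ratio to WT was 1.10 in each of the other lists, with quartiles of 0.98 and 1.32 in CLPP-KO and of 0.99 and 1.32 in WT + 2HG. The CLPP-KO ratio of *Plin2* was thus above the upper quartile and that of *Pnpla2* within the quartiles. Both WT + 2HG ratios were below the lower quartile.

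Promoter composition had not been used to choose the 10 genes and varied among them. GC content in the 1001 bp around the canonical start ran from the 9.24th percentile of protein-coding genes for *Cd36* to the 77.5th for *Pnpla2*, with *Lep* at the 56.9th and *Cidec* at the 51.2nd. The CpG observed to expected ratio in the same window had a median of 0.575 over 21764 protein-coding genes, and each of the 10 genes was below it. The highest was *Pnpla2* at 0.560, followed by *Lpl* at 0.524, *Plin2* at 0.421 and *Lep* at 0.377. *Cidec* had 0.213, *Fabp4* 0.206, *Adipoq* 0.143, *Plin1* 0.123, *Cd36* 0.101 and *Lipe* 0.0758. The 3 genes with a peak beside the canonical start had the 3 highest ratios, a grouping made after the values were seen. *Plin1* and *Lipe* were also marked, and *Lipe* had the lowest ratio of the 10. The *Lpl* summits, at +928 and +870 bp, lay outside the 1001 bp in which its ratio was taken. Over all protein-coding genes the median ratio was 0.755 for those marked in every list, 0.622 for those marked in WT + 2HG and CLPP-KO but not in WT, 0.532 for those marked in CLPP-KO alone, 0.498 for those in WT + 2HG alone and 0.200 for those in no list. *Pnpla2* and *Plin2* were below the lower quartile of their class, 0.641. *Lep* was the 1 unmarked gene of the 10 above the upper quartile of its class, 0.338, with 30 CpG in 1001 bp.

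**Figure D3:**
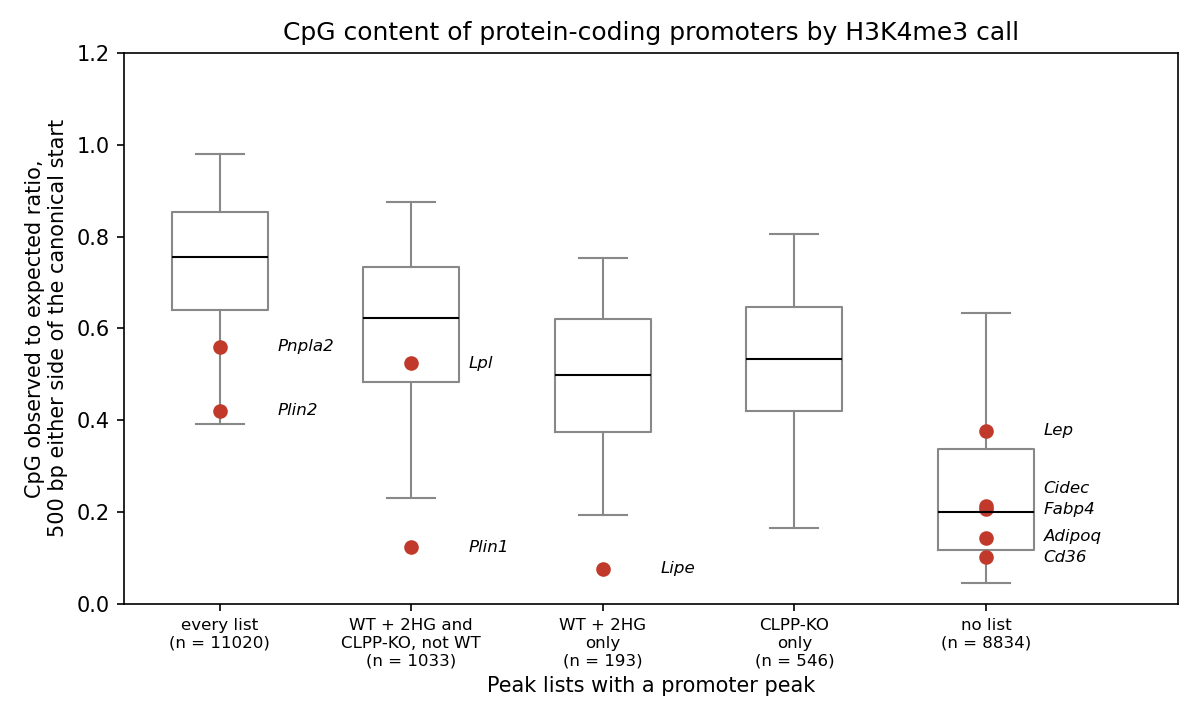
CpG observed to expected ratio in 1001 bp around the canonical start (vertical axis) of protein-coding genes, grouped by the lists in which they have a promoter peak (horizontal axis). Boxes give quartiles and median, whiskers the 5th and 95th percentiles, and red points the 10 genes, and genes marked in WT but missing from another list are not drawn. For *Plin1* and *Lipe* the ratio is that of the canonical start, away from which their peaks lie.

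Short motifs were searched on both strands in the 250 bases before each canonical start. A match describes letters and not a site. TATAAA occurred in 11.9% of 21764 protein-coding promoters and, of the 10 genes, in *Lpl* alone. CCAAT occurred in 36.5% of promoters and in those of *Adipoq*, with 3 matches, and *Cidec*, with 1. GGGCGG occurred in 36.3% of promoters and in those of *Pnpla2*, *Lipe* and *Lep*. No promoter of the 10 genes held more than 1 of the 3 motifs.

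The wider lists place the 10 genes among others of their roles. Their counts stand beside the 51.3% of all protein-coding genes marked in WT, 58.2% in CLPP-KO and 56.4% in WT + 2HG. Of 25 further genes of fatty acid uptake, 15 were marked in WT, 18 in CLPP-KO and 19 in WT + 2HG, and 15 in every list. *Slc27a2*, a fatty acid transport protein, *Angptl4*, an inhibitor of lipoprotein lipase, and *Cav1*, the coat protein of caveolae, were marked in WT + 2HG and CLPP-KO and not in WT. Their percentiles were 18.2 and 30.0 for *Slc27a2*, 37.9 and 23.3 for *Angptl4*, and 13.2 and 29.8 for *Cav1*. *Slc27a6* was marked in WT + 2HG alone, at 4.66. In WT the highest was *Vldlr*, a receptor for triglyceride-rich lipoproteins, at the 97.8th percentile, with 98.7 in CLPP-KO and 98.3 in WT + 2HG. The lowest was *Acsl6*, an acyl-CoA synthetase, at 20.1, with 40.6 and 25.1 in the same lists. Here and in the other wider lists the lowest gene is named for its low WT value, so that a higher value elsewhere carries that choice.

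Of 20 further genes of droplet coat and growth, 12 were marked in WT, 15 in CLPP-KO and 13 in WT + 2HG. *Cidea*, a relative of *Cidec* that is abundant in brown adipocytes, was marked in WT + 2HG at the 21.3rd percentile and in CLPP-KO at the 33.6th, and not in WT. *Plin3* and *Plin5*, which encode further coat proteins, were marked in CLPP-KO alone, at 5.52 and 16.2. With each list limited to the length of that of WT, neither had a peak and 12 of the 20 genes were marked in each list. The WT percentile was highest for *Cavin1*, a caveolar protein, at 99.2, with 99.4 in CLPP-KO and 98.8 in WT + 2HG. It was lowest for *Hilpda*, an inhibitor of the lipase encoded by *Pnpla2*, at 9.05, with 16.1 and 8.65.

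Of 15 further genes of lipolysis, 9 were marked in WT and 11 in each of the other lists. *G0s2*, another inhibitor of that lipase, and *Pnpla3*, a related lipid hydrolase, were the 2 marked in WT + 2HG and CLPP-KO and not in WT, at 17.9 and 27.5 for *G0s2* and 28.0 and 52.9 for *Pnpla3*. *Pde3b*, the phosphodiesterase through which insulin lowers lipolysis, was highest in WT at 98.3, with 93.2 in CLPP-KO and 98.9 in WT + 2HG. *Adrb1*, the β1-adrenergic receptor, was lowest in WT at 13.7 and stood at 83.9 in CLPP-KO and 64.9 in WT + 2HG. Its peak was 693 bp wide in WT, 2599 bp in CLPP-KO and 2532 bp in WT + 2HG.

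Of 22 further adipokines and their receptors, 8 were marked in WT, 11 in CLPP-KO and 9 in WT + 2HG, and 11 in no list. *Cdh13*, which encodes the adiponectin-binding T-cadherin, was marked in WT + 2HG at 26.3 and in CLPP-KO at 38.2, and not in WT. *Sfrp5*, a secreted Wnt inhibitor, and *Lepr*, the leptin receptor, were marked in CLPP-KO alone, at 6.39 and 1.51, and in no list when the lists were of equal size. *Vegfa*, the vascular growth factor, was highest in WT at 98.1, with 99.2 in CLPP-KO and 99.1 in WT + 2HG. *Apln*, which encodes apelin, was lowest at 9.37 and stood at 40.7 in CLPP-KO and 24.3 in WT + 2HG. In the 4 wider lists together, each of the 44 genes marked in WT was marked in every list, as were 98.8% of all protein-coding genes marked in WT. Of the 38 without a WT peak, 11 had one in CLPP-KO and 8 in WT + 2HG, against the 14.9% and 11.6% of protein-coding genes given above. With equal-sized lists both counts were 7, against 8.39% of protein-coding genes in CLPP-KO and 7.26% in WT + 2HG, and 0 genes were marked in CLPP-KO alone or WT + 2HG alone.

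**Figure D4:**
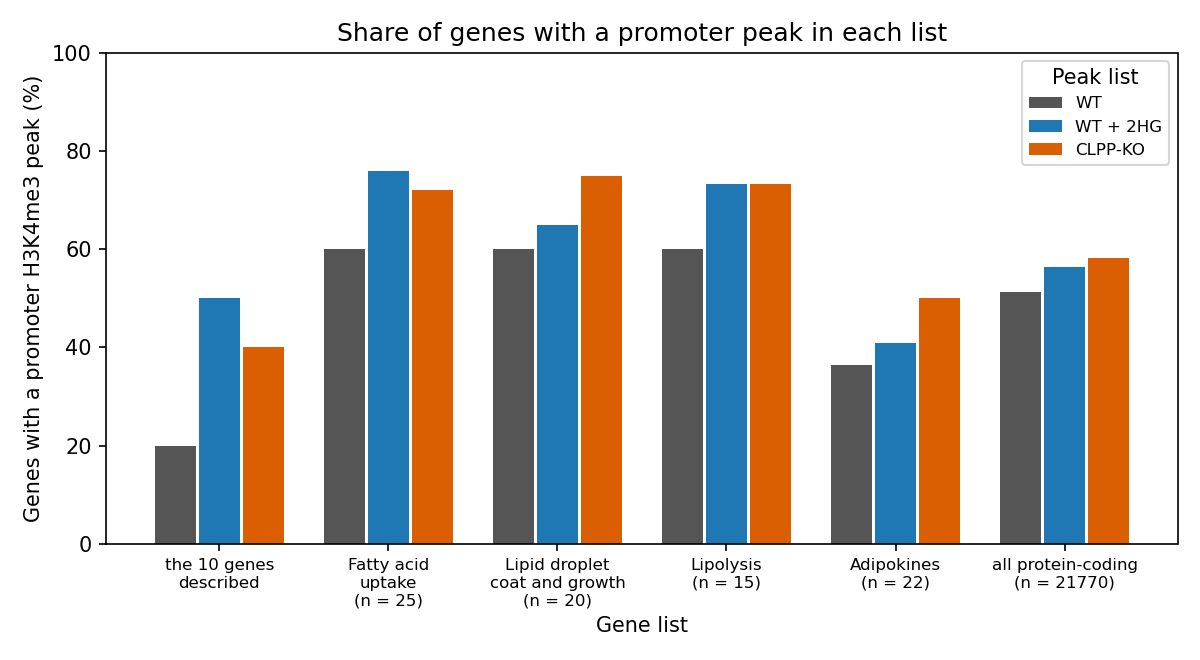
Share of genes with a promoter peak (vertical axis, %) in WT, WT + 2HG and CLPP-KO for the 10 genes described, the 4 wider lists and all protein-coding genes (horizontal axis). The WT bar is the lowest in each group, and the 10 genes have the lowest WT share, 20%.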

How the data were processed

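H3K4me3 ChIP–seq was made from 12 samples and 3 inputs. Per the submitters' processing notes and the study's methods, reads were trimmed with fastp 0.23.4 and mapped to GRCm39 with BWA 0.7.17 (deepTools 3.5.4 is also listed), and Genrich 0.6.1 called 1 set of peaks from all 4 replicates of each condition. In the lists the authors deposited, the signal of a peak is its area under the curve and its summit has a −log10 p-value. The smallest areas were just over 200, above the minimum area that the study's methods state. The study's calling command also leaves out chromosomes X and Y and many scaffolds. Each deposited list nevertheless holds peaks on X and on scaffolds, and the lists were used as deposited. The study states 1 general sequencing depth for its ChIP–seq, but the deposited lists give no read counts, so the depth of each sample and peak is unknown here.

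Starts came from GENCODE M39, and no peak lay beyond a chromosome's end (77 peaks of WT, 6 of WT + 2HG and 217 of CLPP-KO lay on unplaced scaffolds). A promoter peak overlapped 2000 bp either side of any start of a gene by at least 1 bp, and the peak with the largest area stood for the gene. The percentile was the share of the list's peaks with an area at or below that of the peak. Areas were not compared between lists. Every wider-list gene whose presence differed between lists was named, with those of highest and lowest WT percentile. One wider-list name had no match in the annotation, and 1 was a second name of a gene already listed. The 10 genes, the wider lists and the markers were chosen with earlier results of these data known. No test was possible with 1 list per condition. The code was tested on 400 simulated peaks, of which 400 were assigned correctly, and its gene counts equalled those of bedtools 2.31.1 for 3 of 3 lists. Python 3.11.15, numpy 2.4.6, pandas 2.3.3 and matplotlib 3.10.9 were used.

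Alternatives changed the window, the starts, the overlap, the assignment of peaks, the thresholds, the list sizes, the chromosomes and the ranking. One stretch of sequence and 1 neighbouring gene are not reported here.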

Additional observations from a re-analysis of the deposited data

How the results depend on the processing

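The number of genes marked in each list stayed within 1.5 times for each of the 4 wider lists under every alternative tried, but the differences between lists did not. Over the 82 wider-list genes, counted together after the values were seen, equal-sized lists left 0 marked in CLPP-KO alone (4 before) and 0 in WT + 2HG alone (1 before), 7 marked in CLPP-KO and not in WT (11 before), and 1, *Hilpda*, marked in WT and not in every list. A summit −log10 p of at least 5 left 2 in CLPP-KO alone and 0 in WT + 2HG alone, and an area of at least 1000 left 2 and 0, with 12 in WT + 2HG and CLPP-KO and not in WT. Assigning a peak to the nearest start gave 4 in WT and not in every list, 5 in WT + 2HG alone and 14 in WT + 2HG and not in WT. Counts of the 10 genes are small and moved more easily. With windows of 1000 bp, 1 gene was marked in WT + 2HG and CLPP-KO and not in WT, and 1 in CLPP-KO and not in WT, since *Plin1* lost its peaks. When a peak counted only for the gene with the start nearest to its summit, 2 genes were marked in WT + 2HG and 2 in CLPP-KO, 1 in every list, 1 in WT and not in every list, 0 in WT + 2HG alone and 1 in each of WT + 2HG and CLPP-KO and not in WT, because *Lpl*, *Pnpla2* and *Lipe* share their peaks with noncoding genes. With a summit −log10 p of at least 5, and with an area of at least 1000, WT kept 1 gene, *Pnpla2*, and 1 was marked in every list, as *Plin2* fell below the thresholds. With the area threshold 1 was marked in CLPP-KO alone. With the canonical start alone, chosen after the values were seen, 3 were marked in WT + 2HG, 0 in WT + 2HG alone and 1 in both WT + 2HG and CLPP-KO and not in WT. Windows of 3000 bp, starts of protein-coding transcripts, the summit rule, equal-sized lists and chromosomes 1 to 19 changed no count of the 10 genes. The percentile difference of *Plin2* between WT + 2HG and WT turned to 0.41 on chromosomes 1 to 19 and to 2.29 by summit −log10 p, and that of *Pnpla2* to 16.9 by summit −log10 p. Between CLPP-KO and WT, the differences of *Plin2* and *Pnpla2* stayed positive by summit −log10 p, at 8.88 and 17.4. Equal-sized lists turned them to -8.03 and -4.24 and peaks shared by the 3 lists to -5.33 and -6.01. The same settings moved the differences of WT + 2HG from WT to -11.8 and -11.5 and to -8.64 and -14.0. The percentiles themselves also moved with equal-sized lists, in CLPP-KO from 24.7 to 7.79 for *Plin2* and from 33.8 to 18.9 for *Plin1*, and in WT + 2HG from 15.7 to 4.00 and from 21.0 to 10.1. Width differences could not change, since no alternative redrew the edges of a peak and each marked gene had 1 promoter peak per list. Their sameness is therefore no check on the widths. No paired analysis was possible because each list pools the 4 replicates, and for the same reason no replicate could be left out.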
